A study of Mus musculus with 4 samples.

Results

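Keratins are the intermediate filament proteins of epithelial cells, and their genes lie in a cluster of type I genes on mouse chromosome 11 and a cluster of type II genes on chromosome 15. The genes described here are the protein-coding genes named Krt followed by a number in those clusters, with the basal-layer pair Krt5 and Krt14 and all keratin-associated protein (Krtap) genes left out. There are 51 of them among 21887 protein-coding genes, 26 on chromosome 11 and 25 on chromosome 15. Krt74 and Krt85, planned for the inner root sheath and the hair cortex and cuticle groups below, were not among the 51. Those groups are therefore counted without them. A p63 peak was assigned to a gene when its summit lay in the gene body or within 10 kb of it, and such a gene is called marked. Each peak was counted a single time however many genes it reached.

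Chromatin immunoprecipitation and sequencing (ChIP-seq) had been used to map the transcription factor p63 in epidermis of mouse dorsal skin at postnatal day 0. The groups were wild type (WT) and p63 alphaKO (alphaKO), with 1 ChIP library and 1 input per genotype, and only the peak lists of the ChIP libraries were used. The labels name the alphaKO genotype without describing the allele, and neither the strain nor the number of animals per library is given in the sources used here. A single library per group gives no measure of biological variation, so the genotypes were not tested against each other and all values below describe these libraries.

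A keratin filament is built from pairs of 1 type I and 1 type II protein, and the pair in use marks the cell's place in the epithelium. Basal keratinocytes make KRT5 and KRT14, cells that leave the basal layer switch to KRT1 and KRT10, wounded skin and follicles use KRT6, KRT16 and KRT17, and the hair shaft has its own set. Simple epithelia use KRT7, KRT8, KRT18, KRT19 and KRT20. The factor p63 is needed to form stratified epithelia, and alpha is the name of a C-terminal form of the protein.

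No p63 site lay at a keratin gene start that could be placed. RefSeq (GRCm38.p6, the mm10 assembly) gave a start site and a promoter window, from 250 bases before the start to 50 after it, for 34 of the 51 genes, with 35 windows in all. No peak of either list overlapped any of these 35 windows, a count of 0 that allows a share of up to 8.57% by counting error alone. Over all 21263 windows of protein-coding genes the share was 6.93% in WT and 3.16% in alphaKO, both under that limit, so 35 windows are too few to tell the keratin genes from the rest. The other 17 genes have no start or strand in that table. WT peaks spanned the higher-coordinate end of 3 of them, Krt16 (fold 4.03), Krt17 (4.21) and Krt80 (3.83), with summits 225, 193 and 362 bp from that end. On chromosome 11 every keratin gene with a strand there is on the minus strand, where the higher-coordinate end is the start. The peaks at Krt16 and Krt17 may therefore lie at gene starts, which could not be placed here. Of the 90 promoter windows of any gene inside the cluster spans, 3 were overlapped by a peak, those of Krt5, Krt14 and Krtap3-2, which encodes a keratin-associated protein of the hair shaft. The sequences below are the 250 bases before the start of Krt10, Krt8 and Krtap3-2. Among the 34 genes with a start, Krt10 and Krt8 had the sites closest to it, and Krtap3-2 is given because a peak overlapped its window. Each sequence is written 5′ to 3′ along its gene, and all 3 genes are on the minus strand. Capitals mark CATG, the core of the sequence that p53 family proteins prefer.
Krt10 (chr11:99389365-99389614): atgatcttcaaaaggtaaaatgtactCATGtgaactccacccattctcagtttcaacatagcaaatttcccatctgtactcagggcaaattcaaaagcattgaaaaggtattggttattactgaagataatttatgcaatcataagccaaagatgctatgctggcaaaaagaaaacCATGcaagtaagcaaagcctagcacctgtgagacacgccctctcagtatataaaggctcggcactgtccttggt
Krt8 (chr15:102004343-102004592): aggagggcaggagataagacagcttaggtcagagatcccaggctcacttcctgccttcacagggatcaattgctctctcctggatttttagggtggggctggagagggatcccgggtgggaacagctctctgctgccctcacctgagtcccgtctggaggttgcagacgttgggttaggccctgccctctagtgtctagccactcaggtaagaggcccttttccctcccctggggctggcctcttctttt
Krtap3-2 (chr11:99556854-99557103): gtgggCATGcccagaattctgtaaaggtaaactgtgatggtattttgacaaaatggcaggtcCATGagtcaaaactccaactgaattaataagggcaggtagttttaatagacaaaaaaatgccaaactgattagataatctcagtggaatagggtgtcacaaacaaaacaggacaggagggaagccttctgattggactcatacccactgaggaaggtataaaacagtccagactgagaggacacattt

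The Krtap3-2 window holds 2 copies of CATG, which begin 245 and 188 bases before the start. The peak summits lay 242 (WT) and 245 (alphaKO) bases before the start. The Krt10 window has 2 copies of CATG and the Krt8 window none, and the nearest summits were outside both windows, 1.74 kb (WT) and 1.73 kb (alphaKO) upstream of the Krt10 start and 1.28 kb upstream of the Krt8 start in both lists. CATG, which reads the same on either strand, is common: it occurred in 19 of the 35 keratin windows (54.3%) and in 48.5% of 21263 windows of protein-coding genes, counting the 250 bases before the start. The full-site core CNNGNNNNNNCNNG, also its own reverse complement, was found in 18 of the 35 (51.4%) against 68.5% of all windows. Its stricter form CATGNNNNNNCATG occurred in none of the 35 and in 0.423% of all windows. Copies of CATG inside this longer motif were counted under both. These matches describe letters in the windows and do not identify binding sites.

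More of the keratin genes were marked than of protein-coding genes at large, in both libraries. In WT 24 of 51 (47.1%) were marked, against 26.4% of all protein-coding genes, and in alphaKO 26 (51.0%), against 30.6%. Marked in both were 19 (37.3%, against 20.3%) and in at least 1 list 31 (60.8%, against 36.7%). In WT only, 5 of the 51 were marked (against 6.01% of all genes), and in alphaKO only 7 of the 51 (against 10.3%). Neighbouring keratin genes share flanks and therefore peaks, so these counts are not independent of each other. The sites lay mostly beside the genes. Counting summits inside gene bodies alone, 5 of the 51 keratin genes were marked in WT and 6 in alphaKO. These are smaller shares than the 15.7% and 19.5% of all protein-coding genes, the reverse of the order within 10 kb. Keratin genes are short, with a median length of 7315 bp against 17169 bp.

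Counted per length of DNA, the keratin loci were dense in p63 peaks. The bodies and flanks of the 51 genes cover 1.04 Mb and held 29 distinct WT peaks, or 28.0 per Mb, against 5.77 per Mb over the bodies and flanks of all protein-coding genes. In alphaKO they held 23 peaks, or 22.2 per Mb, against 7.35 per Mb. The flanks alone carried 35.1 (WT) and 28.4 (alphaKO) peaks per Mb, beside 7.91 and 8.44 for all protein-coding genes. The gene bodies carried 18.3 and 13.7, beside 5.24 and 7.08, so flanks were denser than bodies over all genes too. The body value in WT leans on a single gene, Krt78, whose RefSeq extent of 50624 bp runs past the start in RefSeq's promoter table. Without Krt78 the bodies held 10.3 WT and 12.9 alphaKO peaks per Mb.

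The type I cluster, from 99232761 to 100269951 on chromosome 11, is split by a block of Krtap genes. Inside this span of 1.04 Mb lay 22 WT and 22 alphaKO peaks, of which 16 and 12 reached a keratin gene described here and 3 and 3 reached Krt14. The longest stretch without a summit ran 457 kb in WT (99557095 to 100014052) and held 36 protein-coding genes, none of them a keratin gene. In alphaKO the longest such stretch was 332 kb, and peaks lay within the WT gap in Gm11562 (fold 32.4), in Krtap4-2 (28.0) and 11.9 kb from Krtap29-1 (17.0), none of them with a WT partner. Of the 23 Krtap genes in the cluster, 3 (13.0%) were marked in WT and 7 (30.4%) in alphaKO, beside 26.4% and 30.6% of all protein-coding genes. The 3 were Krtap3-1, Krtap3-2 and Krtap3-3, all through the single site at Krtap3-2, with folds of 11.1 in WT and 24.5 in alphaKO. The others marked in alphaKO, Krtap2-4, Krtap4-1, Krtap4-2 and Krtap4-7, were reached only by the peaks in Gm11562 and Krtap4-2.

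**Figure D1:**
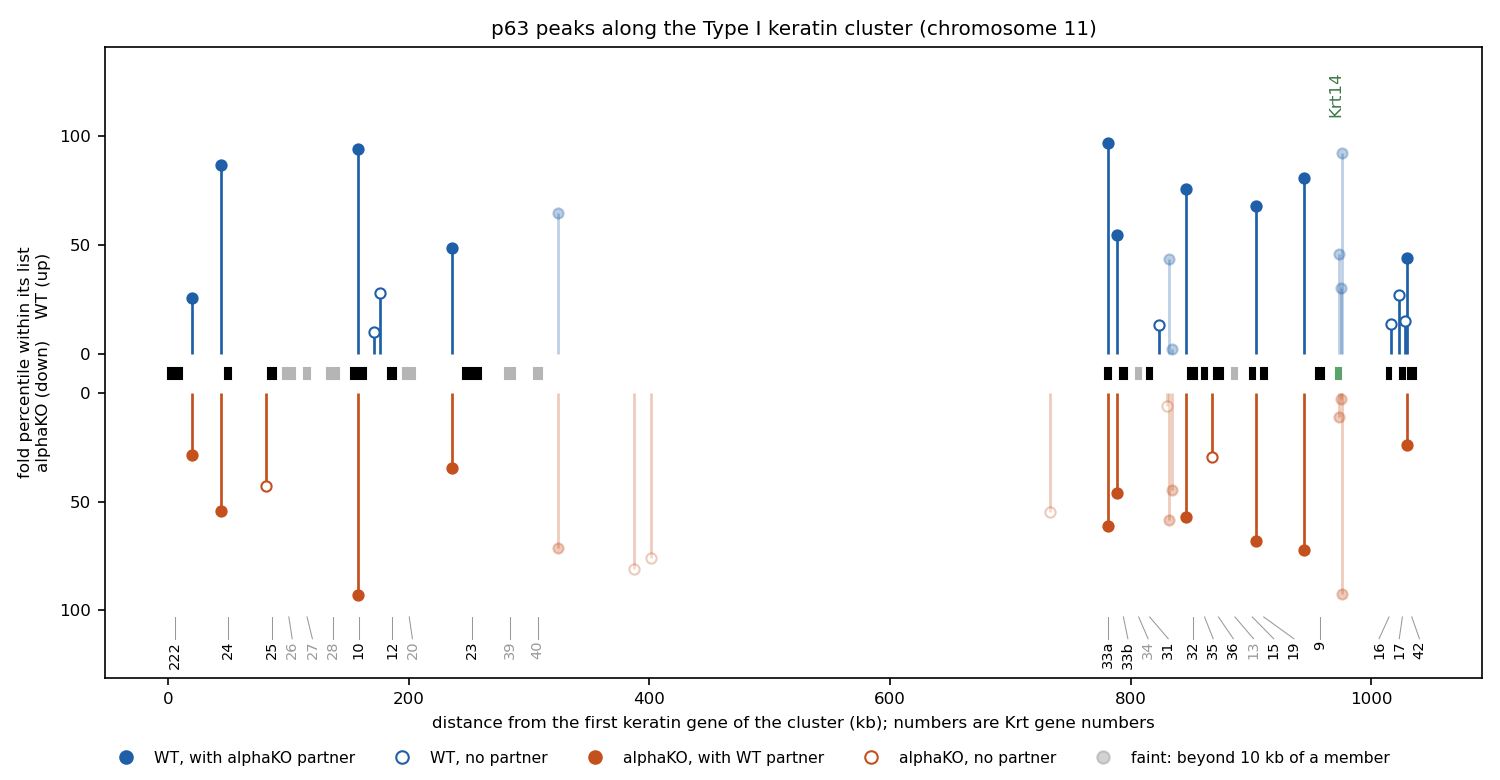
p63 peaks along the type I keratin cluster, as distance in kb from the first keratin gene (x) and percentile of fold enrichment within the peak's own list (y, WT upward, alphaKO downward). Boxes are keratin genes (black, marked; grey, unmarked; green, Krt14); the Krtap block in the middle has no WT summit over 457 kb and holds the alphaKO peaks in Gm11562 and Krtap4-2 and near Krtap29-1.

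The type II cluster spans 0.684 Mb of chromosome 15, from 101348315 to 102032026, and also contains Krt18, a type I gene. It held 17 WT and 14 alphaKO peaks, 4 and 2 of them at Krt5. In WT its longest stretch without a summit was 176 kb and contained Krt82, Krt90, Krt75, Krt6b and Krt6a. In alphaKO it was 160 kb and contained Krt72, Krt73, Krt2, Krt1, Krt77, Krt76 and Krt4. The inducible keratin genes Krt6a and Krt6b thus lay beside Krt5 in an interval where no peak came within 10 kb of either gene in either list. None of the peaks counted for the 51 genes was within 10 kb of Krt5 or Krt14.

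**Figure D2:**
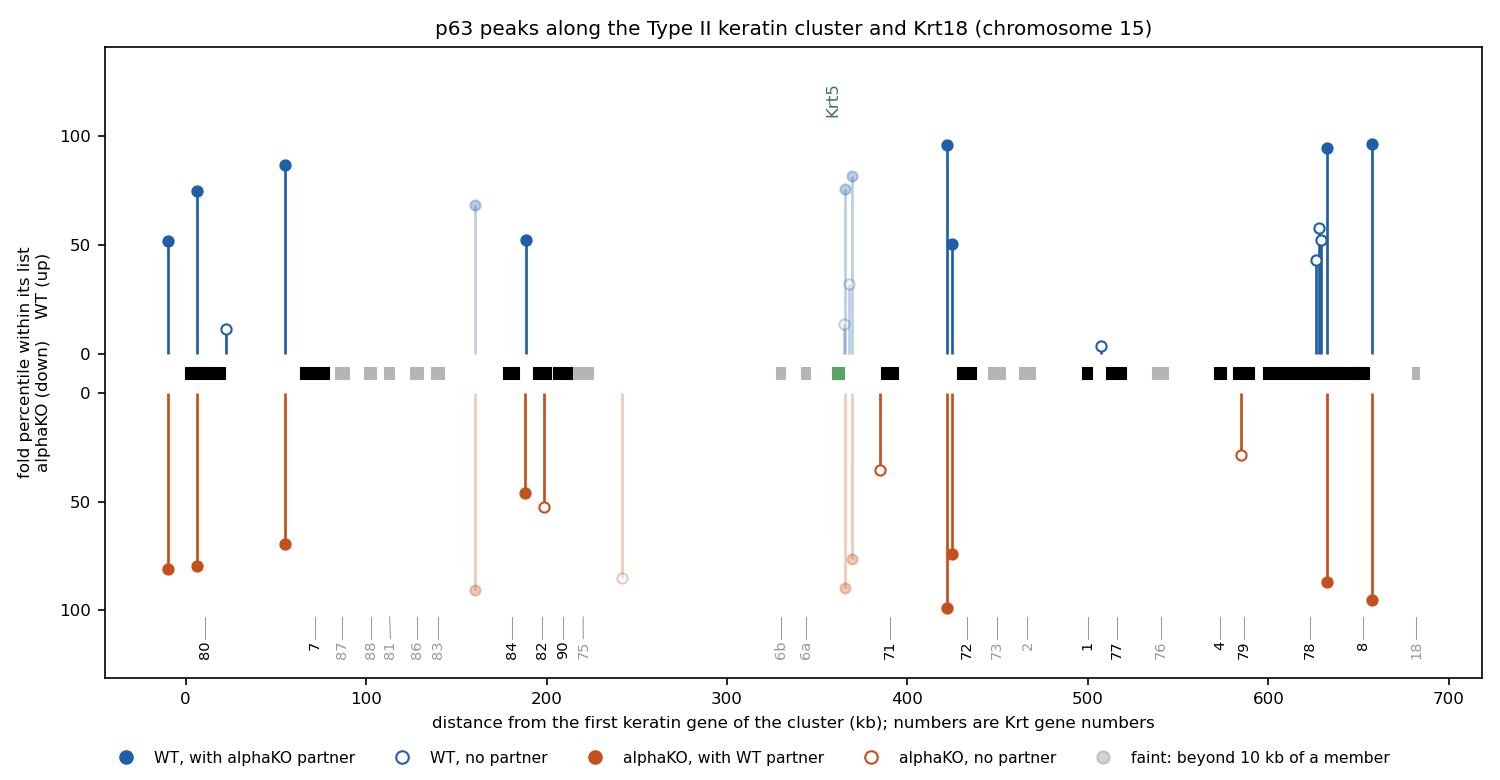
p63 peaks along the type II cluster and Krt18, drawn as for the type I cluster, with Krt5 in green. Filled points have a partner in the other list; peaks stand in groups at Krt80 and Krt7, Krt84 and Krt82, Krt5, Krt72, and Krt78 and Krt8, and the intervals around Krt6a, Krt6b, Krt73 and Krt2 carry none.

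As a group, keratin peaks had middling strength, with a few near the top of the lists. Fold enrichment, given below as fold, is the authors' ratio of the pileup at a summit to the local background, and pileup is the number of fragments over the summit. The percentile of a fold is the share of peaks in the same list with a lower fold. The median fold of the keratin peaks was 8.75 in WT and 17.9 in alphaKO, beside 8.44 and 15.5 over the whole lists, and their median percentiles were 52.2 and 57.2. Folds ran from 2.93 to 37.7 in WT and from 9.64 to 102 in alphaKO. Values of the lists are set side by side and are not a measure of change.

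Among the 6 keratin genes of the suprabasal epidermis, 5 were marked in WT (83.3%) and 3 in alphaKO (50.0%). The shares over all protein-coding genes were 26.4% and 30.6%. The 2 genes marked in WT only, Krt1 and Krt77, shared a single weak peak, described below. This group and those that follow are small, so their counts do not show a difference between the libraries. Krt10, the type I keratin of the spinous layer (chromosome 11, 99385254 to 99397449), had a site at 99390879 to 99391326 with a pileup of 388 in WT and 521 in alphaKO. Its folds were 30.0 and 53.7, at percentiles 94.3 and 92.8, so the site stood near the top in both libraries. The summit lies upstream of the start in RefSeq's promoter table and inside the longer extent that RefSeq gives the gene. A second WT peak, 14.6 kb upstream of the start, had a fold of 3.71 and no alphaKO partner. Krt1, the type II partner of Krt10, was far less marked: a single WT peak between Krt1 and Krt77, 2.93 kb from Krt77, had a pileup of 37 and a fold of 2.93, at percentile 3.47, and alphaKO had none within 10 kb.

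Krt9, the keratin of palms and soles, had a shared site 9.83 kb outside the gene, close to the limit for counting, with folds of 16.8 in WT and 25.1 in alphaKO and the same summit, 100176953, in both lists. Krt78 (chromosome 15, 101946001 to 101996624) had a shared site at 101980893 to 101981253 with pileups of 350 and 338 and folds of 30.8 and 40.7. Beside it WT listed 3 further peaks within the gene's extent, with folds of 7.42, 9.70 and 8.75, for which alphaKO listed no partner. All 4 sites lay 20.4 to 26.7 kb upstream of the Krt78 start that RefSeq's promoter table gives, so whether they belong to Krt78 depends on the extent used. Krt2, a keratin of the upper suprabasal layers, had no peak within 10 kb in either list.

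Of the 8 genes of the basal, bulge and inducible epidermal or follicular group, 4 (50.0%) were marked in each list and 3 (37.5%) in both. Of all protein-coding genes, 26.4% were marked in WT, 30.6% in alphaKO and 20.3% in both. Krt15, a keratin of basal cells and the hair follicle bulge (chromosome 11, 100131759 to 100135949), shared a site with its neighbour Krt19 at 100136556 to 100136964. The pileup there was 205 in WT and 153 in alphaKO, while the folds were 12.0 and 22.7. The order of the libraries therefore differed between pileup and fold, and the local background recovered from the 2 values was 16.1 in WT and 5.78 in alphaKO. The inducible genes Krt16 and Krt17 and their neighbour Krt42 lay among 4 WT peaks with folds of 4.03, 5.43, 4.21 and 7.54. Only the last had an alphaKO partner, with a fold of 9.64 and pileups of 85 and 74. Krt16, whose reach held the first and second of these peaks, was marked in WT only. Krt79, a keratin of the hair canal, was marked in alphaKO only, through a peak (fold 10.5) that also reached Krt4, and Krt75, Krt6a and Krt6b were unmarked.

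Inner root sheath keratin genes, which serve the layer that moulds the growing hair, were marked in 1 of 7 cases in WT and 3 of 7 in alphaKO. These shares were 14.3% and 42.9%, beside 26.4% and 30.6% of all protein-coding genes. The strongest alphaKO site of all the keratin genes was in this group, 5.72 kb beyond the far end of Krt72 (chromosome 15, 101776172 to 101786520). At 101770148 to 101770726 the pileup was 318 in WT and 711 in alphaKO, with folds of 33.7 and 102, which ranked 436 and 189 in their lists (percentiles 95.9 and 98.7). A companion site 3.41 kb from the gene had pileups of 131 and 254 and folds of 8.49 and 26.6. Both sites therefore stood higher in the alphaKO list than in the WT list. Krt25 (fold 13.5) and Krt71 (11.9) were marked in alphaKO only, each by a peak within 1 kb of the gene's far end, and Krt26, Krt27, Krt28 and Krt73 were unmarked.

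Hair cortex and cuticle genes made up the largest group, with 6 of 16 (37.5%) marked in WT, 8 (50.0%) in alphaKO and 5 (31.2%) in both. Over all protein-coding genes the shares were 26.4%, 30.6% and 20.3%. The strongest WT site of all the keratin genes lay inside Krt33a (chromosome 11, 100011199 to 100016212) at 100013801 to 100014288, with a pileup of 227 in WT and 140 in alphaKO. Its folds were 37.7 and 19.6, so it stood at percentile 97.0 in WT and 61.2 in alphaKO. This site also reached Krt33b, as did a weaker shared site between the genes with folds of 9.13 and 14.3. Krt32 had a shared site with folds of 14.4 and 17.9, and Krt84 and Krt82 shared a site with folds of 8.78 and 14.3. Listed in alphaKO alone were a site in Krt82 that also reached Krt90 (fold 16.2) and a site that reached Krt35 and Krt36 (10.7), and in WT alone a site at Krt31 (4.01). Krt34, Krt39, Krt40, Krt81, Krt83, Krt86 and Krt87 were unmarked.

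Keratin genes of other epithelia were marked as well, although their products are not those of the interfollicular epidermis. Krt8, a keratin of simple epithelia (chromosome 15, 101996711 to 102004342), had its site at 102005388 to 102005896 with a pileup of 536 in WT and 476 in alphaKO. Its folds were 35.7 and 65.4, at percentiles 96.5 and 95.4, and the summits lay 1 bp apart. The site was also within 10 kb of Krt78 and was the strongest peak counted for that gene in both lists. Krt18, which encodes the partner of KRT8 in simple epithelia, had no peak within 10 kb, nor had Krt20. Krt7 had a shared site 9.26 kb upstream of its start with folds of 20.3 and 23.5, and Krt19 had the site it shares with Krt15.

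Of the 6 genes of internal stratified and corneal epithelia, 3 (50.0%) were marked in each list and 2 (33.3%) in both. The shares over all protein-coding genes were 26.4% in WT, 30.6% in alphaKO and 20.3% in both. Krt24 had a shared site with pileups of 164 in WT and 125 in alphaKO and folds of 20.3 and 16.8, at percentiles 86.7 and 54.4. Krt23 had folds of 8.22 and 11.6. Krt12, the keratin of the cornea, was marked in WT only (5.53) and Krt4, a keratin of the oesophagus and tongue, in alphaKO only, while Krt13 and Krt76 were unmarked. Outside these groups, Krt80, a keratin of differentiating cells, had 2 shared sites and a WT site without a partner (3.83). The site 9.76 kb outside Krt80 had pileups of 94 and 361 and folds of 8.74 and 32.4, and the site in the gene had folds of 14.0 and 30.8. Krt222 had a weak shared site (5.27 and 10.6), and Krt88 was unmarked.

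**Figure D3:**
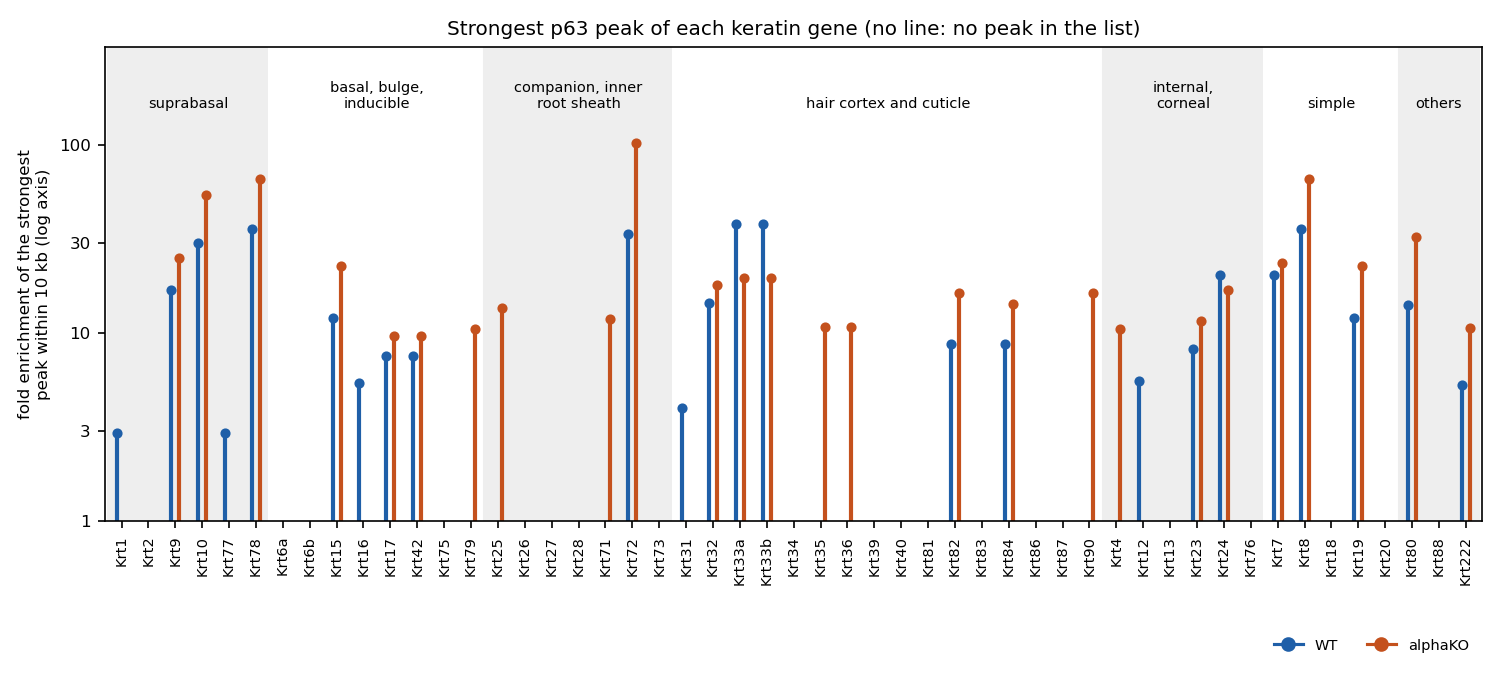
Fold enrichment of the strongest p63 peak in the body or within 10 kb of each of the 51 keratin genes (log axis), in WT (blue) and alphaKO (orange), grouped by the epithelium in which the keratin is known. Krt33a and Krt33b (1 shared peak) and Krt24 are the genes with a higher fold in WT among those marked in both lists. Krt72 reaches 102 in alphaKO. The peak drawn for Krt78 is the site at Krt8, so it appears in both groups.

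Most keratin sites of the alphaKO list had a partner in WT, meaning a peak that shares at least 1 bp. Of 29 WT keratin peaks, 18 (62.1%, Wilson interval 44.0 to 77.3) had an alphaKO partner, beside 66.6% of the whole WT list. Of 23 alphaKO keratin peaks, 18 (78.3%, 58.1 to 90.3) had a WT partner, beside 48.4% of the whole alphaKO list. These 95% intervals cover counting error only, and peaks are not replicates. The 11 WT peaks without a partner had a median fold of 4.21 (2.93 to 9.70) and lay at Krt10, Krt12, Krt31, Krt16, Krt17, Krt80, Krt77 and Krt78. The 5 alphaKO peaks without a partner had a median fold of 11.9 (10.5 to 16.2), below the alphaKO list's median of 15.5, and all but the Krt82 site were under that median. A site missing from a list may lie under that list's threshold.

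At the 18 shared sites summits lay a median of 6 bp apart, with a range of 0 to 75 bp. The fold was higher in alphaKO at 16 of the 18 (88.9%), beside 83.7% of all 7054 shared sites. The pileup was higher in alphaKO at 12 of the 18 (66.7%, beside 74.7% of all), and the recovered local background was higher in WT at 13 of the 18 (72.2%, beside 73.3% of all). The exceptions by fold were the Krt33a site, whose alphaKO fold was 0.520 of the WT fold, a ratio at percentile 1.46 among all shared sites, and the Krt24 site, with 0.830 at percentile 8.61. At the opposite end were the outer Krt80 site, with a ratio of 3.71 at percentile 92.2, and the Krt72 sites, with 3.13 and 3.04 at percentiles 86.8 and 85.8. The median ratio was 1.60 at keratin sites and 1.68 at all shared sites. By place within each list, 12 keratin sites stood higher in WT and 6 in alphaKO, and 40.9% of all shared sites stood higher in alphaKO. Across the 18 sites the folds of the 2 lists had a Spearman rho of 0.645, and across all shared sites 0.723; sites of a library share its depth and its background, so this is a description.

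**Figure D4:**
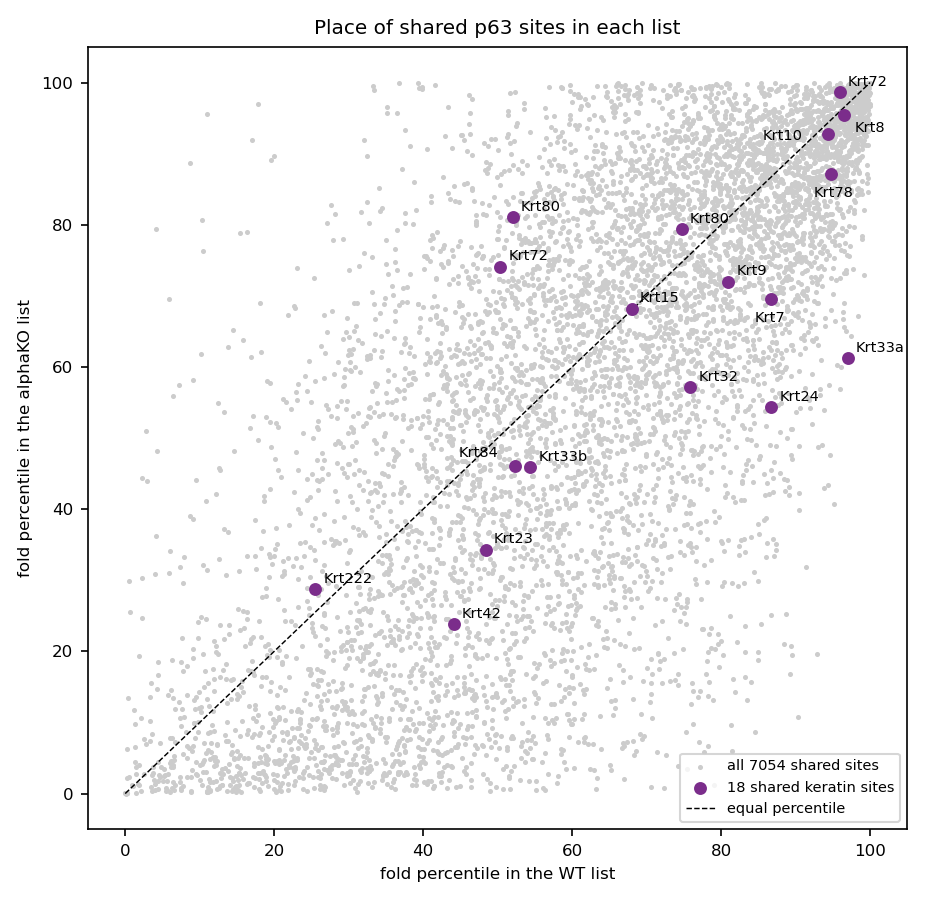
Percentile of fold enrichment in the WT list (x) and the alphaKO list (y) for 7054 shared p63 sites (grey) and the 18 shared keratin sites (purple, labelled by the nearest keratin gene); the dashed line marks equal percentiles. Krt10, Krt8 and the stronger Krt72 site are high in both lists, Krt33a and Krt24 lie below the line, and the outer Krt80 site and the weaker Krt72 site lie above it.

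The limit of 10 kb decided some of these assignments. Just inside it were the sites of Krt23 (9.25 kb), Krt7 (9.26 kb), Krt80 (9.76 kb) and Krt9 (9.83 kb). Just outside were a site 11.7 kb from Krt80, with folds of 32.8 in WT and 57.2 in alphaKO, a pair of sites between Krt31 and Krt32, 13.3 and 14.5 kb away in WT, and a site 16.4 kb from Krt84 with folds of 12.1 and 47.1. An alphaKO peak 16.2 kb from Krt75, with a fold of 37.7 and no WT partner, was also left out by the limit. So were sites beyond Krt42, which lay 14.2, 15.2, 17.2 and 19.3 kb away in WT. Their folds were 14.2, 8.75, 20.2 and 27.7 in WT and 23.6, 15.5, 53.1 and 34.6 in alphaKO.

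A list of 25 genes related to the keratin network was also counted, chosen with earlier results of these data known. It covers desmosomal plaque proteins, plakins, cornified envelope proteins and others, such as Sfn, Stub1, Ndel1 and Usp9x. Not all of its genes encode proteins that bind, anchor or cross-link keratin filaments. Of the 25, 15 (60.0%) were marked in each peak list and 14 in both, beside 26.4% (WT) and 30.6% (alphaKO) of all protein-coding genes. These shares describe this list and not keratin-binding proteins as a class. Dsp, which encodes desmoplakin, the protein that ties keratin filaments to desmosomes, had a strongest fold of 57.8 in WT and 78.9 in alphaKO. Pkp3, a plakophilin gene, had 42.1 and 74.6, and Jup, which encodes plakoglobin and lies beside the type I cluster, had 35.7 and 62.3. Plec, which encodes the cytolinker plectin, had 9.23 and 21.7. Unmarked in both lists were 9 genes, among them Lor, Flg2, Hrnr and Pkp2, while Tchh was marked in WT only (2.89) and Flg in alphaKO only (14.2). For comparison, the strongest peaks of Krt14 stood at percentile 92.5 in both lists and those of Krt5 at 81.8 in WT and 89.9 in alphaKO, positions below the strongest sites of Krt10, Krt8 and Krt72.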

How the data were processed

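ChIP-seq for p63 and inputs were made from WT and alphaKO epidermis (4 samples), and the 2 ChIP peak lists were analysed. The submitters' processing notes name MACS2 2.1.1.20160309, Bowtie2 and the build mm10. For caller options, control libraries and duplicate handling, nothing is stated there. The authors' tables list, per the file headers, each peak's summit, fold enrichment (a ratio), pileup (a coverage signal), and −log10 values of the p-value and q-value. Read totals are not given, so depth is unknown; the lists held 10616 (WT) and 14593 (alphaKO) peaks.

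The member genes, lists and comparisons were chosen with earlier results of these data known. Every member with a peak in at least 1 list is named. Gene extents and symbols came from RefSeq's table of GRCm38.p6, and start sites, strands and promoter sequences from its promoter table; exons and introns were not analysed here. The local background came from dividing the pileup, raised by 1, by the fold and subtracting 1. Partners share at least 1 bp, and shares carry 95% Wilson intervals. The assignment and overlap steps were tested on simulated data. Alternatives changed the flank, the q and fold thresholds, list length, gene assignment, member rule, gene extent and the overlap. Scripts ran in Python 3.11.15 with pandas 2.3.3, matplotlib 3.10.9, SciPy 1.17.1 and NumPy 2.4.6.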

Additional observations from a re-analysis of the deposited data

How the results depend on the processing

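The counts of marked keratin genes, 24 in WT and 26 in alphaKO, and of their peaks, 29 and 23, depended on the flank. With gene bodies alone they were 5 and 6 genes and 8 and 6 peaks. As shares of the keratin genes, these were below the 15.7% and 19.5% of all protein-coding genes. Within 50 kb they were 50 and 49 genes and 48 and 42 peaks, where 47.1% and 55.1% of all protein-coding genes were marked. Within 5 kb, 17 and 20 genes were marked, beside 22.6% and 26.0% of all. The share of WT keratin peaks with an alphaKO partner rose from 62.1% to 78.3% when both lists were held to a fold of at least 5, which leaves out 6 WT keratin peaks and no alphaKO one. The share over the whole WT list at that threshold is not given here. In the whole WT list, too, peaks without a partner had the lower median fold, 4.79 beside 11.5 for those with one. Whether the share rises alike over the whole list was not tested. Krtap genes of the chromosome 11 cluster fell from 3 to 1 in WT and from 7 to 2 in alphaKO within 5 kb. In the other 59 comparisons of these counts, shares and medians with an alternative, shares remained inside their interval and counts and medians changed by no more than 1.5 times. Of 37 strongest folds of single genes still marked within 5 kb, 29 were the same and 8 were lower, since a stronger peak lay farther out: Krt72 went from 33.7 to 8.49 in WT and from 102 to 26.6 in alphaKO, Krt33b from 37.7 to 9.13 and from 19.6 to 14.3, Krt78 from 35.7 to 30.8 and from 65.4 to 40.7, Krt16 from 5.43 to 4.03 in WT and Krt80 from 32.4 to 30.8 in alphaKO. The stronger peak lost for Krt78 was the site at Krt8. Krt1, Krt77 and Krt31 were no longer marked in WT at −log10 q of at least 10 or at a fold of at least 5. With the alphaKO list held to the length of the WT list, Krt17 and Krt42 were no longer marked in alphaKO and became WT only. Counting each summit for its nearest gene alone left out Krt1, Krt19 and Krt82 in WT and Krt4, Krt17, Krt19, Krt35 and Krt90 in alphaKO. Krt78 was no longer marked in either list when genes began at the start in the promoter table, an alternative chosen after seeing the data, which left 24 WT and 22 alphaKO peaks. Depth is unknown and each genotype had 1 library, so a site absent from a list was not detected there and is not shown to be absent. No paired analysis was possible because there was 1 library per genotype.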
